A study of Mus musculus with 16 samples.

Results

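Igf1, Igf2, Igf2r, Igfbp2, Igfbp3, Igfbp4, Igfbp5, Igfbp6 and Igfbp7 are the mouse genes for the insulin-like growth factor (IGF) ligands, the receptor that clears IGF-II, and secreted IGF-binding proteins, and they are described here in quadriceps muscle. They were found through the RefSeq accessions that the array files give for each probe, which yielded 13 probes on 26 spots for the 9 genes, among 36717 genes or transcripts on the array. All 13 probes passed the filter on dim signals, as did 21281 genes or transcripts in all.

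The samples were total RNA from quadriceps of male mice aged 8 weeks, hybridised to 16 one-colour Agilent arrays in 4 groups of 4. Wild-type (WT) mice were fed ad libitum (WT_Fed) or fasted for 24 h (WT_Fasted). Mice lacking FoxO1, FoxO3 and FoxO4 in skeletal muscle were likewise fed (mFoxO-TKO_Fed) or fasted for 24 h (mFoxO-TKO_Fasted). In these mFoxO-TKO mice Cre recombinase was driven by the human skeletal α-actin (HSA) promoter, which is active in muscle fibres, so the fibroblasts, vessel cells and immune cells of the same muscle keep their FoxO genes. The controls are labelled wild type and age-matched, and the sources used here do not say whether they were littermates. The labels do not say that each array came from a separate animal, so the p-values measure the spread between these samples. In bulk muscle RNA, fewer cells of a type and less RNA per cell cannot be told apart.

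IGF-I and IGF-II are small secreted growth factors that bind the type 1 IGF receptor and, through insulin receptor substrates, PI3-kinase and Akt, promote growth and protein synthesis in muscle. Active Akt keeps FoxO transcription factors out of the nucleus, and low insulin and IGF signalling, as in fasting, lets them act. The IGF-binding proteins hold IGFs in blood and matrix, prolong their half-life and limit or aid their access to the receptor, and proteases such as PAPP-A release the ligand again.

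The samples were compared with one another on the log2 scale after the 75th percentile of each array had been subtracted, so a value of 0 is the level of a probe at that percentile. The share of spots marked well above background ran from 45.0% to 75.2% per array. The share with an outlier mark ran from 0.143% to 3.28%, and no spot was saturated. The number of samples limits the precision, as do, for some probes, dim signals and spots that disagree on an array. Foxo1 was lower in knockout than in WT muscle, by 1.76 in fed and 3.40 in fasted mice (log2; limma, adjusted p = 0.00117 and 3.4e-07). The Foxo4 probe stood well above background on 0 of the 8 knockout arrays. These were therefore set to each array's lowest signal still well above background. On that basis Foxo4 was 6.59-fold lower than in WT in fed mice and 6.13-fold lower in fasted mice. A spot without the mark can read above that signal, so these folds are approximate and not strict lower bounds. Foxo3 did not pass in either state (0.74 in fed and -0.75 in fasted mice; adjusted p = 0.299 and 0.0976), and whether its probe lies in the deleted part is not given. The 8 muscle fibre markers were all measured, and none passed in any comparison.

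The stretch of 250 bases before the transcription start is shown for Igf1, Igfbp3 and Igfbp5, the 3 genes that changed on fasting in both genotypes, and for Igfbp2, which was higher in fasted knockout muscle. The sequences are from RefSeq (GRCm38.p6), 5′ to 3′ on the strand of the gene, and capitals mark the core AAACA of FoxO sites, or TGTTT, the same core on the other strand.
Igf1 (chr10:87860861-87861110, plus strand): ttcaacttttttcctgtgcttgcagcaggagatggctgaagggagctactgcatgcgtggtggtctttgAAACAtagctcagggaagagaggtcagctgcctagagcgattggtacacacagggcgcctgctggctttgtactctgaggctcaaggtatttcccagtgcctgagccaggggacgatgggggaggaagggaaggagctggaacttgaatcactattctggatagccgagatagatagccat
Igfbp3 (chr11:7213924-7214173, minus strand): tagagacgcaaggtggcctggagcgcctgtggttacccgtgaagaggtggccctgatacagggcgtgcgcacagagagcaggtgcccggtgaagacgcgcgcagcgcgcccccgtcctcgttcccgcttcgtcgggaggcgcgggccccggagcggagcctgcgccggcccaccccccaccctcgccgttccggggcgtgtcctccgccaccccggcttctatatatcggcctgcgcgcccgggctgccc
Igfbp5 (chr1:72874866-72875115, minus strand): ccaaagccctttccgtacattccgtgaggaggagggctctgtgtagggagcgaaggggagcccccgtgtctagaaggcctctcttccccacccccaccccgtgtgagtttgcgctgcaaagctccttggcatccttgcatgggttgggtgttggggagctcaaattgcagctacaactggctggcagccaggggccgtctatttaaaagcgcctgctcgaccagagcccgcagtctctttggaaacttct
Igfbp2 (chr1:72825137-72825386, plus strand): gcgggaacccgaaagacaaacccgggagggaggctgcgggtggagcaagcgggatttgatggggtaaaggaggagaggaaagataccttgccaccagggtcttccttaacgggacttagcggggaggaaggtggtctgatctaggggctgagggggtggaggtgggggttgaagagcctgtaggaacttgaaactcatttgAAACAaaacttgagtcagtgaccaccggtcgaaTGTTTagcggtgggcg
All 9 genes had such a window, 13 windows in all because Igf2 has 4 starts and Igfbp2 has 2. The longer FoxO motifs GTAAACA and CAAAACA, which both contain the core, were searched on both strands and matched none of the 13 windows, against 3.17% and 5.56% of 32851 windows of the same length. The core AAACA matched 4 of the 13 windows, those of Igf1, Igfbp6, 1 start of Igf2 and the Igfbp2 start shown, against 46.4% of all windows. The other Igfbp2 start, which is not shown, had 0 core matches. The growth hormone-responsive STAT5 motif TTCNNNGAA matched none, against 7.02%. Such a match is a description of the letters only.

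Fasting of WT mice left 1 of the 9 genes higher and 2 lower, where 20.8% of all genes passed (adjusted p below 0.05, limma with Benjamini-Hochberg adjustment over all 21281 genes), 11.2% as higher and 9.57% as lower. Igf1 and Igfbp5 fell and Igfbp3 rose. In mFoxO-TKO mice fasting left 1 gene higher, Igfbp3, and 3 lower, Igf1, Igf2 and Igfbp5, where 8.52% of all genes passed, 4.29% as higher and 4.23% as lower. In fed mice 1 of the 9 genes was higher in knockout muscle, Igf2, and none lower, where 1.02% of all genes passed, 0.507% as higher and 0.512% as lower. In fasted mice 2 were higher, Igfbp2 and Igfbp5, and none lower, where 9.36% of all genes passed, 4.39% as higher and 4.97% as lower. Of all genes passing, those higher made up 54.0% for fasting in WT mice, but 37.1% when arrays were scaled to probes above background on all arrays and 42.7% with quantile scaling. They made up 50.4% for fasting in knockout mice (63.8% with normexp background correction) and 46.9% for knockout in fasted mice (62.5% when scaled to probes above background on all arrays). None of the calls of the 9 genes changed direction under these settings. The median change over the 9 genes was -0.43 for fasting in WT and -0.18 for fasting in the knockout, beside 0.02 and 0.04 over all genes. The medians for the knockout were -0.01 in fed and 0.17 in fasted mice, beside 0.01 and 0.04. Comparisons that use the same group share its samples.

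**Figure D1:**
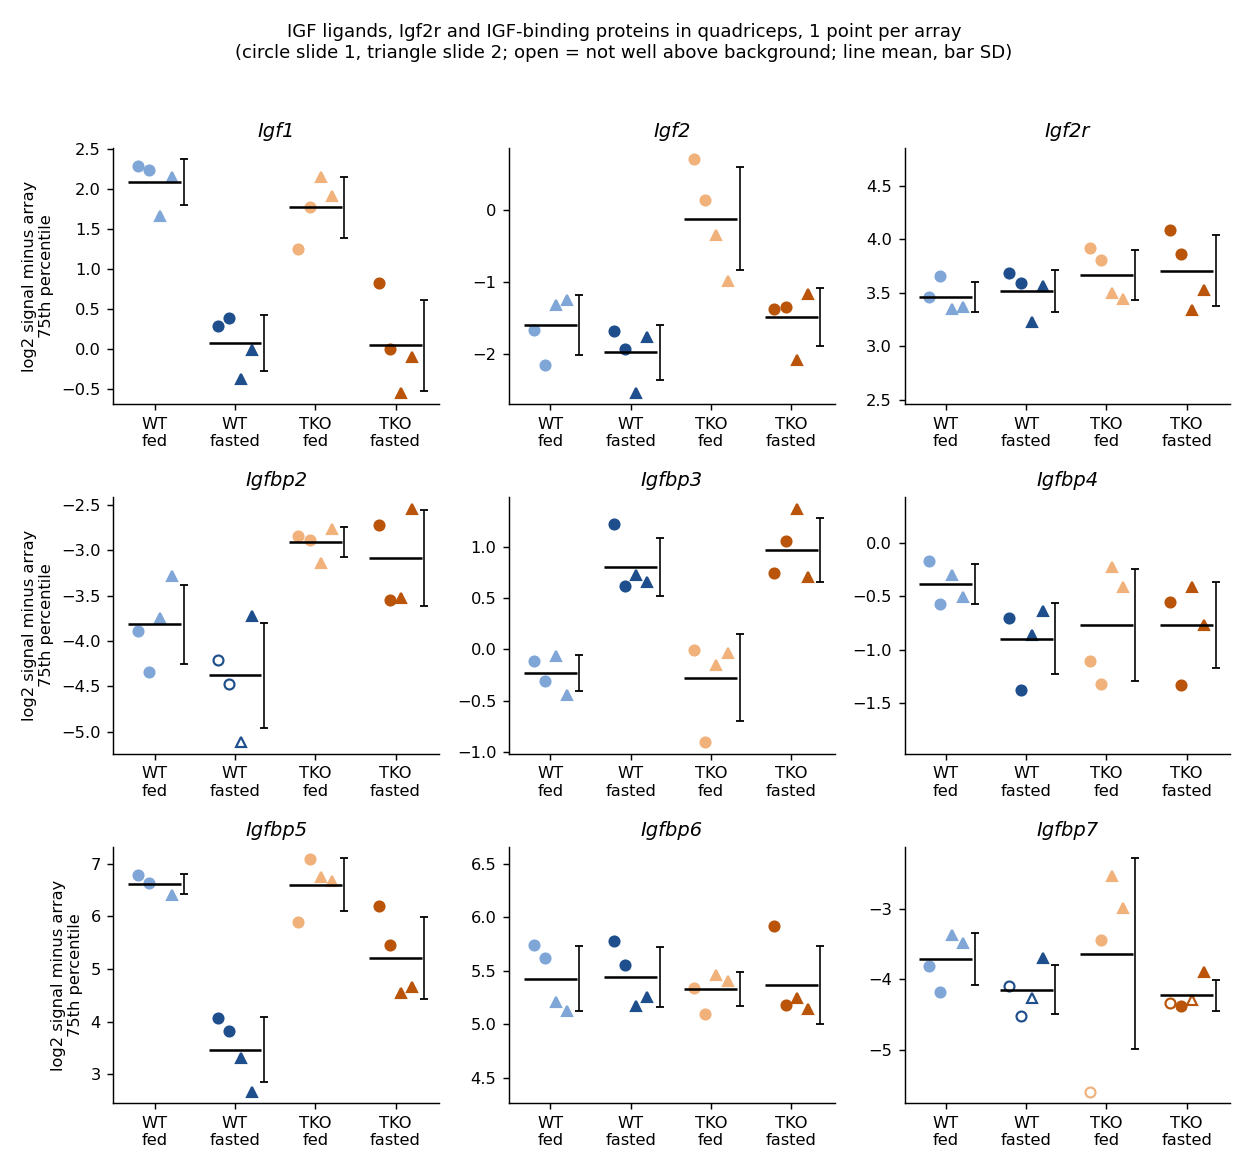
Log2 signal minus the array's 75th percentile (vertical axis, a scale of its own in each panel) of the brightest probe of each gene on every array, by group. Circles are arrays of slide 1 and triangles of slide 2, open symbols were not well above background, lines are group means and bars the SD; Igf1 is low and Igfbp3 high in fasted muscle of both genotypes, Igfbp5 is lowest in fasted WT muscle, and Igf2r and Igfbp6 lie close together in all 4 groups.

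Igf1 encodes the ligand IGF-I, which muscle makes for local use and liver for the circulation. On its brightest probe (A_55_P2085974) the 4 WT fed arrays read 2.28, 2.24, 1.66 and 2.15 and the 4 WT fasted arrays 0.29, 0.39, -0.37 and -0.01. The knockout fed arrays read 1.25, 1.78, 2.14 and 1.91, and the knockout fasted arrays 0.82, 0.01, -0.54 and -0.10. Every fasted array lay below every fed array of either genotype, and the genotypes overlapped in both states. Igf1 fell by 2.01 ± 0.27 (SE, n = 4 per group) in WT mice, a 4.02-fold decrease (limma, adjusted p = 9.8e-05), and by 1.72 ± 0.27, or 3.30-fold, in knockout mice (adjusted p = 0.00140). The fall was 1.92 on slide 1 and 2.10 on slide 2 in WT mice, and 1.10 and 2.35 in knockout mice.

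Knockout itself gave no passing difference in Igf1. The difference from WT was -0.31 in fed mice (95% interval -0.89 to 0.26, adjusted p = 0.909) and -0.03 in fasted mice (-0.61 to 0.55, adjusted p = 0.968). The fasting response differed between the genotypes by 0.29 (-0.53 to 1.10, adjusted p = 0.895). Intervals of this width do not show equal levels.

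The other 3 Igf1 probes read the same gene model, and in a fit of all probes each of them also fell on fasting in both genotypes. In WT mice they fell by 1.14, 0.77 and 1.06 (adjusted p = 0.000867, 0.0205 and 0.0107), which is smaller than on the brightest probe. In knockout mice they fell by 1.02, 0.97 and 1.30 (adjusted p = 0.00605, 0.0132 and 0.00848). None of the 4 probes gave a passing knockout difference in either state. With the mean of the 4 probes in place of the brightest, the fall was 1.25 in WT and 1.25 in knockout mice, so the size of the Igf1 response depends on the probe while its direction and call do not.

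**Figure D2:**
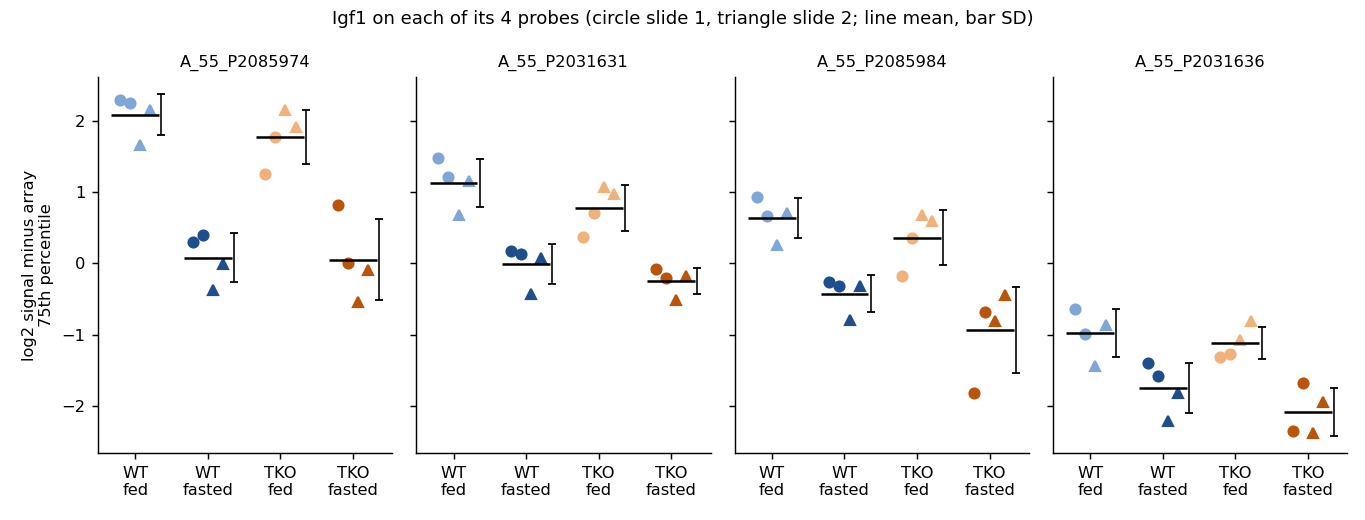
Log2 signal minus the array's 75th percentile on each of the 4 Igf1 probes, by group, with 1 point per array (circle slide 1, triangle slide 2), the group mean as a line and the SD as a bar. The fasted groups lie lower than the fed groups on all 4 probes, and on probe A_55_P2085984 fasted knockout replicate 1 sits at -1.82, below the -0.45 to -0.81 of the other 3 arrays of its group.

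Each Igf1 probe is printed on 2 spots. Over the other 15 arrays the 2 spots of a probe differed by a median of 0.06 and at most 0.33, whereas on fasted knockout replicate 1 they differed by 0.43 to 3.46. On that array probe A_55_P2085984 read -3.55 on 1 spot and -0.09 on the other, and probe A_55_P2031636 read -3.57 and -1.14. The same array had the largest share of outlier marks, 3.28%. Without it Igf1 fell by 1.98 in knockout mice (adjusted p = 0.000272).

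Igf2 encodes IGF-II, the ligand of fetal growth, which is imprinted and which differentiating muscle cells also make. Its single probe read -1.66, -2.15, -1.32 and -1.25 in WT fed muscle and 0.70, 0.14, -0.35 and -0.98 in knockout fed muscle. In WT fasted muscle it read -1.67, -1.93, -2.53 and -1.76, and in knockout fasted muscle -1.37, -1.35, -2.07 and -1.16. The knockout fed arrays were all higher than the arrays of the other 3 groups, with a spread (SD 0.72) wider than theirs (0.39 to 0.41). Igf2 was 1.47 ± 0.33 higher in fed knockout than in fed WT mice, 2.78-fold, and just passed (adjusted p = 0.0410). It was 1 of 2 of the 9 genes whose fed groups did not overlap, as was the case for 9.16% of all genes.

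That difference was 2.33 on slide 1 and 0.62 on slide 2. It no longer passed when any 1 fed array other than knockout replicate 4 was left out, nor without replicate 2 or 4 of either fasted group. Where the call was lost the values were 1.20 to 1.59, with adjusted p between 0.0515 and 0.159. Macrophage markers had their highest summed level in the same group: the log2 sum over the 4 measured markers ran from 4.20 to 5.23 in knockout fed muscle, 3.67 to 4.42 in WT fed, 3.53 to 3.86 in WT fasted and 3.40 to 4.61 in knockout fasted muscle. None of those 4 markers passed in fed mice, and their part in the Igf2 difference was not tested.

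On fasting, Igf2 fell by 1.36 ± 0.33 in knockout mice, 2.57-fold (adjusted p = 0.0167), with no overlap between the groups; the fall was 1.78 on slide 1 and 0.95 on slide 2. Leaving out fed knockout replicate 2 gave -1.28 (adjusted p = 0.0569) and leaving out fasted knockout replicate 3 gave -1.17 (adjusted p = 0.0599), neither of which passed. In WT mice the change was -0.38 (95% interval -1.07 to 0.32, adjusted p = 0.486). The difference between these responses, -0.99 ± 0.46, did not pass (adjusted p = 0.478). In fasted mice the knockout difference was 0.49 (-0.21 to 1.18, adjusted p = 0.435).

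Igf2r encodes the cation-independent mannose 6-phosphate receptor, which takes up IGF-II for degradation and sorts lysosomal enzymes. Its probe is printed on 10 spots, whose SD within an array had a median of 0.08, against an SD of 0.24 between arrays of a group. The group means were 3.46 ± 0.14 in WT fed, 3.52 ± 0.20 in WT fasted, 3.67 ± 0.23 in knockout fed and 3.70 ± 0.33 in knockout fasted muscle (SD, n = 4). No neighbours in that order differed beyond their spread. The changes on fasting were 0.06 and 0.04 and the knockout differences 0.21 and 0.19 (SE 0.17), with 95% intervals that all lay within -0.37 and 0.58.

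Igfbp5 encodes a binding protein that muscle cells secrete and that attaches to extracellular matrix. It had the largest fasting response of the 9 genes in WT mice. Its single probe read 6.79, 6.63 and 6.41 in WT fed muscle and 4.06, 3.83, 3.31 and 2.67 in WT fasted muscle. The spot of WT fed replicate 3 was marked uneven and left out, so that group had 3 values; the marked spot read 5.09. The knockout fed arrays read 5.89, 7.08, 6.74 and 6.67, and the knockout fasted arrays 6.20, 5.46, 4.54 and 4.66. All fasted WT arrays lay below all arrays of the other groups, while fed and fasted knockout arrays overlapped.

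In WT mice Igfbp5 fell by 3.14 ± 0.41, 8.82-fold (adjusted p = 8.9e-05), with 2.76 on slide 1 and 3.42 on slide 2, where WT fed muscle had a single value. With the marked spot kept the fall was 2.81 (adjusted p = 0.000232). In knockout mice it fell by 1.38 ± 0.38, 2.61-fold (adjusted p = 0.0344), with 0.66 on slide 1 and 2.11 on slide 2. This call was lost without any 1 of fed knockout replicates 2, 3 and 4 (-1.22, -1.34 and -1.36) or of fasted knockout replicates 3 and 4 (-1.16 and -1.20), where the adjusted p was between 0.0713 and 0.110. Igfbp5 did not differ detectably between genotypes in fed mice, at -0.01 (95% interval -0.88 to 0.86, adjusted p = 1.0).

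In fasted mice Igfbp5 was 1.74 ± 0.38 higher in knockout than in WT muscle, 3.35-fold (adjusted p = 0.00806), with no overlap; the difference was 1.88 on slide 1 and 1.61 on slide 2. It passed without each of the 16 arrays in turn, with values from 1.42 upward, but not on slide 1 alone (limma, adjusted p = 0.0667). The fasting response differed between genotypes by 1.76 ± 0.55 (95% interval 0.57 to 2.94), which had an unadjusted p of 0.00656 and did not pass after adjustment (adjusted p = 0.181). The interaction was tested in the same way for all 9 genes with limma and none passed, where 1.15% of all genes did, 0.423% as higher and 0.724% as lower; 2 had an unadjusted p under 0.05, Igfbp5 and Igf2.

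Igfbp3 encodes the main carrier of IGFs in blood, where it forms a complex with the acid-labile subunit. It was the only 1 of the 9 to pass as higher on fasting, and did so in both genotypes. The probe read -0.11, -0.31, -0.07 and -0.44 in WT fed muscle and 1.23, 0.61, 0.73 and 0.65 in WT fasted muscle. It read -0.01, -0.90, -0.16 and -0.04 in knockout fed and 0.74, 1.06, 1.37 and 0.71 in knockout fasted muscle. Every fasted array was higher than every fed array, whichever the genotype.

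Igfbp3 rose by 1.04 ± 0.21 in WT mice, 2.05-fold (adjusted p = 0.00277), and by 1.25 ± 0.21 in knockout mice, 2.37-fold (adjusted p = 0.00237). The rise was 1.13 and 0.95 on slides 1 and 2 in WT mice and 1.36 and 1.14 in knockout mice. It passed in both genotypes without each of the 16 arrays in turn. On slide 1 alone it passed in neither WT nor knockout mice (limma, adjusted p = 0.116 and 0.142). Knockout differences were -0.04 in fed (95% interval -0.50 to 0.41) and 0.17 in fasted mice (-0.29 to 0.62), and the responses differed by 0.21 (-0.44 to 0.86), none of which passed.

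Igfbp2 encodes a binding protein with an integrin-binding motif, and in the RefSeq gene order it is the direct neighbour of Igfbp5 on chromosome 1. Both Igfbp2 probes were dim. On the brighter one the WT fed arrays read -3.89, -4.34, -3.75 and -3.29 and the WT fasted arrays -4.21, -4.47, -5.11 and -3.72, of which 1 of 4 was well above background. The knockout fed arrays read -2.84, -2.89, -3.14 and -2.76 and the knockout fasted arrays -2.72, -3.55, -3.52 and -2.54, all well above background. Knockout arrays were higher than WT arrays in both states, without overlap in either.

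In fasted mice the Igfbp2 difference was 1.30 ± 0.30, 2.46-fold (adjusted p = 0.0114), with 1.21 on slide 1 and 1.38 on slide 2. It did not pass on either slide alone (adjusted p = 0.113 and 0.177). With normexp background correction the Igfbp2 difference was 0.67 and did not pass either (adjusted p = 0.138). The second probe gave 1.94 ± 0.39 (adjusted p = 0.00447). That probe was well above background on 2 WT fed, 1 WT fasted, 4 knockout fed and 3 knockout fasted arrays. It thus passed the filter on dim signals only through the knockout fed group, and its differences from WT rest largely on dim WT readings. In fed mice the brighter probe gave 0.91 ± 0.30 (95% interval 0.27 to 1.55, adjusted p = 0.237) and the second probe 1.71 ± 0.39 (adjusted p = 0.0535), and neither passed. Fasting changes on the brighter probe were -0.56 in WT (adjusted p = 0.216) and -0.18 in knockout mice (adjusted p = 0.797). Igfbp2 and Igfbp5 were the 2 of 9 genes whose fasted groups did not overlap between genotypes, where 12.8% of all genes did not.

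Igfbp4 encodes an inhibitory binding protein that PAPP-A cleaves. The WT fed arrays read -0.17, -0.58, -0.30 and -0.51 and the WT fasted arrays -0.71, -1.38, -0.86 and -0.64. These did not overlap, as was the case for 4 of the 9 genes in this comparison (Igf1, Igfbp3, Igfbp4 and Igfbp5) and for 28.2% of all genes, but the change of -0.51 ± 0.26 did not pass (adjusted p = 0.188). In knockout mice the change was 0.00 (95% interval -0.54 to 0.55), and 3 of the 9 genes did not overlap there (Igf1, Igf2 and Igfbp3), beside 13.8% of all genes.

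Igfbp6 encodes the binding protein that prefers IGF-II. Its group means were 5.43 ± 0.30 in WT fed, 5.44 ± 0.28 in WT fasted, 5.33 ± 0.16 in knockout fed and 5.37 ± 0.37 in knockout fasted muscle (SD, n = 4), so no 2 groups differed beyond their spread. The 95% intervals of its 4 differences all lay within -0.53 and 0.47. Igfbp7, a secreted relative with low affinity for IGFs, was well above background on 4 WT fed, 1 WT fasted, 3 knockout fed and 2 knockout fasted arrays. Its group means ran from -4.23 to -3.64 with no passing difference (SE 0.47). Knockout fed replicate 1 read -5.60, below the -3.45 to -2.54 of the other 3 arrays of its group; without it Igfbp7 was 1.24 lower in fasted than in fed knockout muscle and passed (adjusted p = 0.00882).

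**Figure D3:**
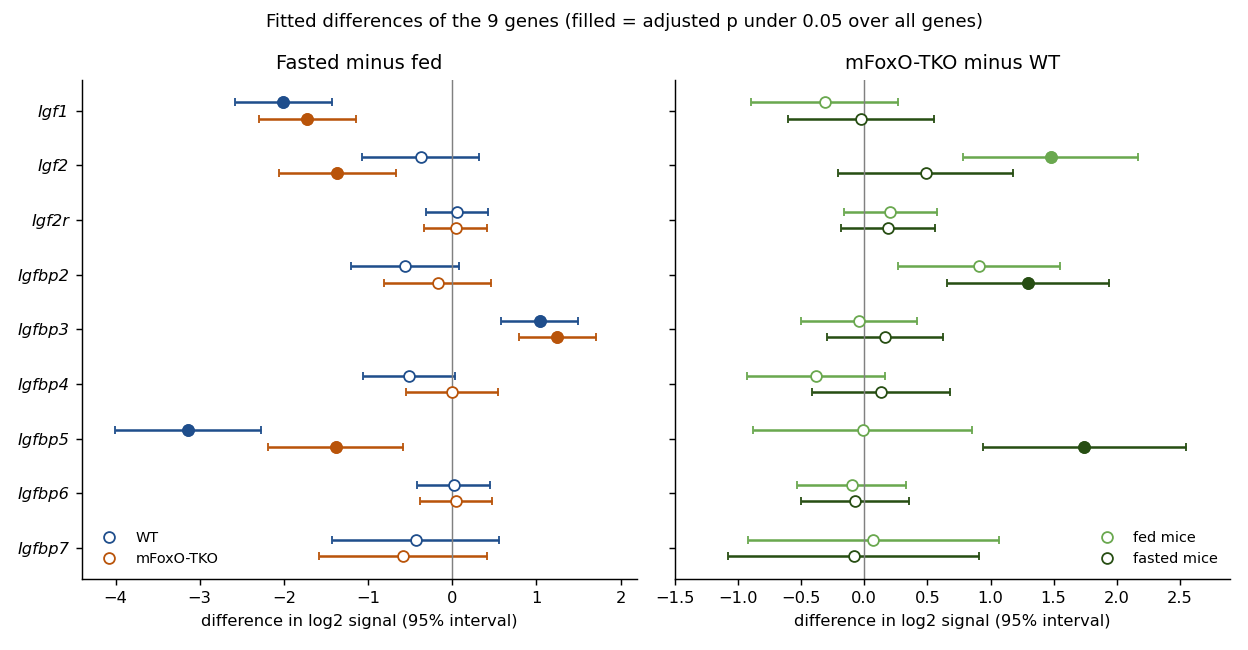
Fitted differences in log2 signal (horizontal axis) for the 9 genes, fasted minus fed in each genotype (left) and mFoxO-TKO minus WT in each feeding state (right); bars are 95% intervals, and filled points passed at an adjusted p below 0.05. Igf1 and Igfbp3 have filled points of similar size in both genotypes, and Igfbp5 runs from -3.14 in WT to -1.38 in knockout mice.

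Fibroblasts make much of the extracellular matrix of muscle, and markers of these cells moved with fasting. Of the 8 markers, all measured, 5 fell and none rose in WT mice (Lum by 2.59, Col15a1 by 1.79, Col1a1 by 1.06, Col1a2 by 1.06 and Dpt by 0.68), with a median change of -0.87; 9.57% of all genes passed as lower there. In knockout mice 3 fell (Lum by 2.18, Col15a1 by 2.05 and Col1a2 by 1.15), with a median of -0.61, beside 4.23% of all genes. None passed between genotypes in either state. The log2 sum of the list ran from 9.22 to 9.32 in WT fed, 8.49 to 9.11 in WT fasted, 8.91 to 9.35 in knockout fed and 8.33 to 8.70 in knockout fasted muscle. These falls stand beside those of Igf1 and Igfbp5 on fasting, and their part in them was not tested.

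Among 4 tendon markers, Scx and Tnmd fell in fasted WT mice, by 1.95 and 1.82, and none passed on fasting in knockout mice. Scx, a transcription factor of tendon cells, was 2.83 higher in fasted knockout than in fasted WT muscle, in the same comparison as Igfbp5. The log2 sum of the tendon list ran from 5.09 to 5.97 in WT fasted and from 5.98 to 6.86 in knockout fasted muscle. Its range was 5.91 to 6.21 in WT fed and 5.97 to 6.44 in knockout fed muscle. Its part in the Igfbp5 difference was not tested. Of the macrophage markers, Mrc1 fell by 1.14 on fasting in WT mice and was 0.86 higher in fasted knockout than in fasted WT muscle, and Adgre1 fell by 1.39 on fasting in knockout mice. Of all genes, 9.57% passed as lower on fasting in WT mice and 4.23% in knockout mice. In fasted mice 4.39% passed as higher in knockout muscle.

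The genes whose pattern over the arrays was nearest to each changed gene were found by the root mean square difference of standardised values among 2377 named genes whose SD over the arrays reached that of the least variable of these 5 genes. Standardising sets aside the size of a change, so likeness here is of pattern only. Nearest to Igf1 were Fbln7 (0.19 SD units, 16 arrays), Il17d (0.21) and Tmem45a (0.23), which changed by -1.58, -1.45 and -1.30 on fasting in WT and by -1.54, -1.34 and -1.12 in knockout mice. Nearest to Igfbp5 over 15 arrays were Fam78a (0.27), Cptp (0.28) and D430041D05Rik (0.29), with differences of 2.34, 0.97 and 1.03 between genotypes in fasted mice. Nearest to Igfbp3 were Plin5 (0.35), a lipid droplet protein, Cbs (0.37) and Tent5b (0.37), at 2.22, 2.41 and 1.95 on fasting in WT mice. Nearest to Igf2 were Tmsb10 (0.37), Chrna1 (0.37), the muscle acetylcholine receptor subunit, and Ptgds (0.37), at 1.72, 1.51 and 2.07 between genotypes in fed mice. Nearest to Igfbp2 were Cda (0.38), 4631405J19Rik (0.43) and Frmpd1 (0.43), at 1.63, 1.71 and 1.64 between genotypes in fasted mice.

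The wider IGF axis was described with a list of 39 receptors, adaptors, proteases, carriers and regulators, of which 32 were measured. In WT mice 5 rose and 3 fell on fasting, with a median of -0.02 over the list, beside 11.2% and 9.57% of all genes. Those higher were Stc2 (2.41 ± 0.61), an inhibitor of PAPP-A, Irs2 (1.69 ± 0.34), an insulin receptor substrate, Igf1r (1.38 ± 0.18), the receptor of both ligands, Insr (0.89 ± 0.24) and Tgfbr1 (0.76 ± 0.14). Those lower were Socs1 (-1.68 ± 0.37), a brake on cytokine signalling, Grb14 (-1.16 ± 0.29), an inhibitor of the insulin receptor, and Igfals (-0.80 ± 0.15), the acid-labile subunit. Their adjusted p was between 6.0e-05 and 0.0143 (limma). A second Tgfbr1 probe gave 0.68 in WT mice, which did not pass (limma, adjusted p = 0.156), and 1.08 in knockout mice, which did (adjusted p = 0.0490).

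In knockout mice 2 of the 32 rose and 2 fell on fasting, with a median of -0.19, beside 4.29% and 4.23% of all genes. Socs1 fell by 2.38 and Tgfbr1 rose by 0.59, as did Htra3, a protease, by 0.68. Plagl1, an imprinted regulator, fell by 1.06 on its brightest probe, but its other 3 probes gave -1.16, 0.12 and -0.05, so they disagree. Insr gave 0.71 on its brightest probe and did not pass (adjusted p = 0.0820), whereas its other 2 probes, 0.64 and 0.85, did. Ctsd, a lysosomal protease chosen after its values were seen, had the largest change, -2.61, with an SE of 1.90, and did not pass. Its mean was 6.60 in fed and 4.00 in fasted knockout muscle. It was well above background on all 4 fed but only 3 of the fasted knockout arrays.

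Igf1r was the only 1 of the 32 with a passing interaction, beside 1.15% of all genes. It read 0.84, 1.23, 1.24 and 1.26 in WT fed muscle and 2.62, 2.02, 2.86 and 2.60 in WT fasted muscle. In knockout muscle it read 1.10, 0.83, 1.02 and 1.03 when fed and 1.34, 0.89, 0.91 and 0.91 when fasted. WT fasted arrays were thus the highest, and the other 3 groups overlapped one another. The response of 1.38 in WT stood against 0.02 in knockout mice, a difference of -1.36 ± 0.25 (adjusted p = 0.0132).

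In fed mice 1 of the 32 partners passed as lower in knockout muscle, beside 0.512% of all genes. That partner was Igf2bp3, an RNA-binding protein of fetal tissue. It read 2.62 ± 0.41 lower (limma, adjusted p = 0.00420), with 4 WT and 1 of 4 knockout arrays well above background. The size of that difference thus rests on knockout readings mostly at background. Igf2bp3 passed the filter on dim signals only through the WT fed group, the higher group of this comparison. In fasted mice 1 was higher and 4 were lower, beside 4.39% and 4.97% of all genes. Grb14 was 1.57 ± 0.29 higher in knockout muscle. Igf1r was 1.51 ± 0.18 lower. The growth hormone signalling genes Jak2 and Stat5b were 0.58 and 0.55 lower (limma, adjusted p = 0.0493 and 0.0174), and the Jak2 groups overlapped. Stat5a and Ghr of the same list, chosen after their values were seen, did not pass. Stat5a was 0.48 higher in knockout muscle without overlap (limma, adjusted p = 0.051), and Ghr differed by 0.05 (adjusted p = 0.947). Igf2bp3 was well above background on only 2 of 4 fasted WT arrays and on 0 fasted knockout arrays. It read 2.04 lower in fasted knockout muscle (limma, adjusted p = 0.00436). As readings of both groups lay at background, the size of that difference is not known. The limit from the filter on dim signals holds here too. Stc2, with an interaction of -2.18 ± 0.86, and Grb14, with 0.94 ± 0.41, did not pass that test (adjusted p = 0.342 and 0.419). Stc2 read -3.37, not well above background, on fasted knockout replicate 1 and -0.55 to 0.06 on the other 3 arrays of that group, and its interaction was -3.61 on slide 1 and -0.76 on slide 2.

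**Figure D4:**
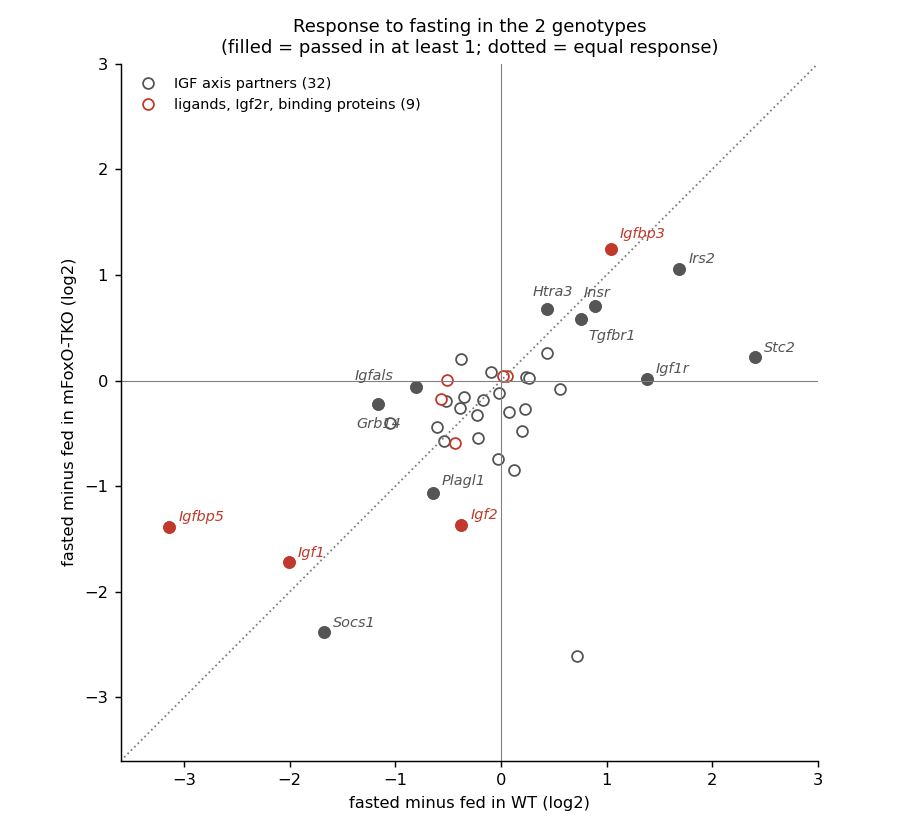
Change in log2 signal on fasting in WT (horizontal axis) and mFoxO-TKO mice (vertical axis) for the 9 genes and 32 measured IGF axis partners, with filled points where the change passed in at least 1 genotype and a dotted line of equal response. Igf1 and Igfbp3 lie near the line, Igfbp5 lies left of it at -3.14 and -1.38, and Igf1r lies on the horizontal axis at 1.38 and 0.02.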

How the data were processed

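Total RNA from quadriceps of 16 samples was measured on one-colour (Cy3) Agilent arrays. Per the file headers, Feature Extraction 11.0.1.1 gave the deposited intensity of each spot, background-corrected, with the mm9 build; the submitters' processing notes name Feature Extraction 9.5. The authors' deposited value table, a score of 18324 rows, equals those intensities times 1 factor per array, with column medians of 22.0 to 25.0 and 75th percentiles of 100.0, rounded and unlogged; it holds 6 of the 9 genes.

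Here log2 of the processed intensity was used. Spots marked as outliers were left out, spots of a probe averaged, and each array's 75th percentile over 55681 probes subtracted. Probes entered the fit if all arrays of any 1 group had them well above background, and the brightest kept probe stood for its gene. A model of 4 group means over all 16 arrays was fitted with limma 3.58.1 (R 4.3.3; 12 residual and 3.24 prior degrees of freedom), with Benjamini-Hochberg adjustment over 21281 genes and a threshold of 0.05, and was tested on simulated data. Slide 1 held replicates 1 and 2 of every group, and slide 2 held 3 and 4. Each group had its own column on a slide, so position and group cannot be told apart. Lists of markers (muscle fibre, fibroblast, endothelial, pericyte and smooth muscle, macrophage, adipocyte, satellite cell, tendon, liver, red blood cell) and IGF axis partners were used. The members and lists were chosen with earlier results of these data known.

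Named were all 9 genes with every probe, up to 8 partners per comparison with the largest passing change, the 3 genes nearest to each passing member, and Foxo1, Foxo3 and Foxo4; others are marked as chosen after their values were seen. The alternatives were another background correction, quantile scaling, other percentiles, dim-probe filters, marked spots kept, mean of probes, slide and replicate blocks, each slide alone, array weights, the authors' table and leaving out each array. Names in the files are those of the array's design.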

Additional observations from a re-analysis of the deposited data

Results flagged for a closer look

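Of 51 groups of arrays checked over the probes of the 9 genes, 5 held 1 array far from the other 3 (a gap that chance gives in about 1 of 20 groups). Igfbp3 read -0.90 on knockout fed replicate 2, where the next array read -0.16; without that array Igfbp3 still rose on fasting in knockout mice. Igf1 was low on WT fasted replicate 3 on both probe A_55_P2031631, at -0.43 with the next array at 0.08, and probe A_55_P2085984, at -0.80 with the next at -0.32. Igfbp6 read 5.91 on knockout fasted replicate 1, with the next array at 5.24; that is the array on which the spots of Igf1 disagreed. Igfbp7 read -3.90 on knockout fasted replicate 4, with the next array at -4.30.

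The Igf1r response to fasting differed between the genotypes by -1.36 on the log2 scale in the test of the interaction (limma, adjusted p = 0.0132).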

How the results depend on the processing

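Over 30 alternatives, 1282 of 1320 gene-level comparisons of the 9 genes kept their direction where called and their side of the threshold, 33 lost the call, 5 gained one and none reversed. Most of these comparisons had no call to lose. The losses were most frequent for Igf2 with knockout in fed mice (14 of 30 alternatives) and Igfbp5 with fasting in knockout mice (8 of 28). For fasting in WT mice the count of passing genes, 3, became 4 with quantile scaling, and 2 on each slide alone and in the authors' table. The count of passing genes for fasting in knockout mice, 4, became 2 with normexp and 1 on slide 1 alone. With normexp Igf2 and Igfbp5 were lost (limma, adjusted p = 0.058 and 0.052). That count was 3 with no filter on dim probes, on slide 2 alone and in the authors' table, and 5 with array weights. The count for knockout in fed mice, 1, became 0 with normexp, with no filter on dim probes and on slide 2 alone. For knockout in fasted mice the count of 2 became 1 with normexp, where Igfbp2 was lost, and with only probes above background on all arrays, which leaves Igfbp2 out, and 0 on slide 1 alone, on slide 2 alone and in the authors' table, which lacks Igfbp2 and Igfbp5. Leaving out each array gave 2 to 5 genes for fasting in knockout mice, 0 to 1 for knockout in fed mice, and the same counts as with all arrays otherwise. Igfbp5 had too few values for slide 2 alone. The cause was not tested.

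Same-numbered arrays correlated above 0.1 in their deviations in 23 of 24 pairs (0.06 to 0.39), and 11 of 16 arrays correlated best with their own number. Same-numbered arrays also shared a slide and a row on it, so pairing of samples and position on the slides cannot be told apart. As the labels give no pairing and 1 pair fell short, the numbers were not taken to pair samples. A replicate block gave 2 genes for knockout in fed mice, Igf2 and Igfbp2 (adjusted p = 0.0454 for the latter), and changed no other member's call.

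Counts over all genes moved more. Against 4426 for fasting in WT the alternatives gave 876 to 6348, against 1814 for fasting in knockout mice 127 to 4314, against 217 for knockout in fed mice 33 to 960, against 1991 for knockout in fasted mice 416 to 3377, and against 244 for the interaction 7 to 839; each lowest count came from 1 slide alone. Higher calls of the interaction were 36.9% of passing genes, and 51.5% when arrays were scaled to probes above background on all arrays, a scaling that set the median change of all genes to -0.11 for fasting in WT mice and 0.10 for knockout in fasted mice. A percentile over all spots, chosen after seeing the data, left the counts of the 9 genes as they were. Depth of signal limits Igfbp2 and Igfbp7.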

Other observations

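Among the remaining marker lists, the endothelial receptor Kdr fell by 0.97 on fasting in WT mice, 1 of 6 endothelial markers to pass. Cidec, a lipid droplet protein counted among the adipocyte markers, rose by 1.21 in WT and 1.41 in knockout mice, 1 of 4 measured in each. Of 3 measured satellite cell markers, Pax7 fell by 0.89 and Msc rose by 1.13 on fasting in WT mice, and Msc rose by 0.85 in knockout mice. Of all genes, 11.2% passed as higher and 9.57% as lower on fasting in WT mice, and 4.29% and 4.23% in knockout mice. So few calls are not read as a change of a cell type. None of the 6 pericyte and smooth muscle markers, the 3 measured red blood cell markers or the 1 measured liver marker passed in any comparison.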
